A study of Homo sapiens with 19 samples.

Results

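The libraries described here are the RNA-seq libraries of 786-O cells that overexpressed HIF-2α and of their control cells, 6 of the 19 samples of the series. They were chosen by their labels as the 3 columns of raw counts of the HIF-2α pool and the 3 of the empty vector pool, joined by replicate number, and all genes were taken. Of 23441 genes in the table, 14225 had enough counts to be tested. 786-O, a long-established clear cell renal carcinoma line, lacks functional pVHL, so HIF-2α is stable in it without hypoxia, and it makes only truncated HIF-1α transcripts. Both pools were transduced with lentivirus made in HEK293T cells: the control pool with the vector pRRL (pRRL.IRES.EGFP) alone, and the other with pRRL-HIF-2α, which carries the HIF-2α cDNA ahead of EGFP. The pool carrying HIF-1α (pRRL-HIF-1α, 3 libraries) shared the fit, so it enters the gene filter, the estimate of spread and the replicate terms. Apart from that it serves for direct contrasts with genes named below. RNA was prepared in triplicate, and no source says whether the triplicates were separate transductions. In the fit blocked on replicate number, p-values measure how far differences between pools vary across the replicate numbers of these preparations. They cannot be taken to measure the spread between transductions. The comparison asks which genes, pathways and functions change when a renal cancer line that already has active HIF-2α is given more of it.

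HIF-1α and HIF-2α are transcription factors that pair with HIF-1β, the product of ARNT, and bind a short core in hypoxia response elements. Where oxygen is present, prolyl hydroxylases (the EGLN enzymes) mark the α subunits and pVHL has them degraded, and loss of pVHL in clear cell renal carcinoma leaves the pathway switched on. Known targets serve angiogenesis, glucose uptake, glycolysis, matrix modification and feedback on the pathway, and the α subunits share some of these targets and not others.

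Library totals lay between 34739270 and 38999986 counts in control cells and between 27852754 and 42239869 in HIF-2α cells. Levels are CPM, counts scaled to the library total and corrected with edgeR's TMM factors, and fold changes are log2 values of HIF-2α minus control from edgeR's quasi-likelihood fit, blocked on replicate number. The defining markers of a renal tubular carcinoma line (PAX8, PAX2, KRT8, KRT18, VIM and CDH6) were detected in every library. Of 9 blood cell markers 3 had no count in the 6 libraries, and their summed level of 29.9 to 155 CPM in control and 111 to 155 CPM in HIF-2α cells was almost wholly CD68, a lysosomal protein. Endothelial markers summed to at most 0.860 CPM. Of 8 genes that could mark packaging cells, 5 had no count, and the sum of 77.5 to 218 CPM in control and 47.3 to 109 CPM in HIF-2α cells was almost wholly NEFL. In bulk RNA, fewer cells of a kind and less RNA per cell cannot be told apart.

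EPAS1, the gene of HIF-2α, stood at 946, 3244 and 879.9 CPM in replicates 1, 2 and 3 of the HIF-2α cells. In the control cells it stood at 456, 224 and 162 CPM. Every overexpressing library was above every control library, but the ratio within a pair was 2.07, 14.5 and 5.43. The log2 fold change was 2.48 (SE 0.46), which missed the threshold in edgeR's quasi-likelihood test (adjusted p = 0.0683) and passed it in DESeq2 with the replicate block (adjusted p = 6.31e-07). Counts per gene cannot separate the viral cDNA from the endogenous transcript. ARNT, the partner subunit, had a log2 fold change of 0.24 (SE 0.23, adjusted p = 0.638 from edgeR).

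HIF1A stood at 15.3, 30.4 and 17.5 CPM in HIF-2α cells and at 30.4, 36.7 and 152 CPM in control cells. Control replicate 3 stands apart here, and it also held 14.3 CPM of CA9, a known HIF-1α target that was at 0 and 0.171 CPM in control replicates 1 and 2. HIF1A had a log2 fold change of -1.67 (edgeR, adjusted p = 0.318), and -0.71 without that library (edgeR, adjusted p = 0.855). Control replicate 1 had the highest EPAS1 of its group.

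**Figure D1:**
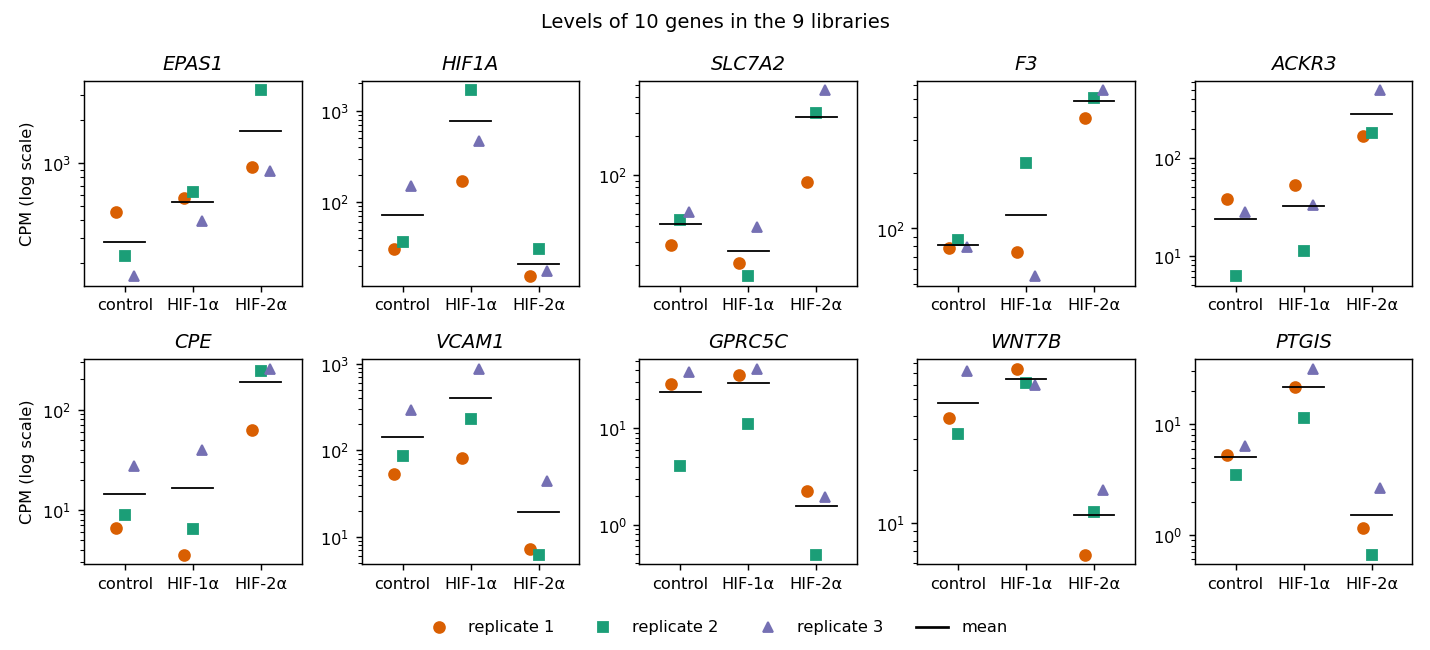
CPM on a log axis of EPAS1, HIF1A, 4 genes that rose and 4 that fell, in the 9 libraries. Points are replicates 1 to 3 of the control, HIF-1α and HIF-2α cells and bars are means. EPAS1 in the HIF-2α cells reached 3244 CPM in replicate 2 and 880 to 946 CPM in the others, and F3 in those cells lay between 397 and 558 CPM against 78.3 to 86.7 CPM in control cells.

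In all, 37 genes differed at an adjusted p under 0.05 in edgeR's quasi-likelihood test, 0.260% of those tested. Of these, 16 rose (0.112%) and 21 fell (0.148%), each in the same direction in all 3 pairs. The groups did not overlap for 15 of the 16 and 14 of the 21, against 11.2% of all genes tested. The test that picked these genes used the same libraries, so direction and lack of overlap are descriptions and not added support. Genes that rose included F3, the trigger of coagulation, the chemokine receptor ACKR3 and the prolyl hydroxylase EGLN3. Genes that fell included the adhesion molecule VCAM1, the collagens COL14A1 and COL6A1, the potassium channel subunit KCNJ16 and the ligand WNT7B.

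How many genes are called depends on the fit. DESeq2 with the replicate block called 268 higher (1.86%) and 219 lower (1.52%), and all 37 were among them. Without the block edgeR called 0 in either direction (477 and 357 at an unadjusted p under 0.05), and DESeq2 called 36 and 29. With the block, edgeR called 66 higher and 19 lower without control replicate 1, 1 and 1 without control replicate 2, and 1 and 6 without control replicate 3. Without HIF-2α replicates 1, 2 and 3 in turn it called 6 and 5, 8 and 16, and 5 and 1. In each of these fits all 37 genes kept their direction, but the fits share libraries with the one that picked the genes.

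**Figure D2:**
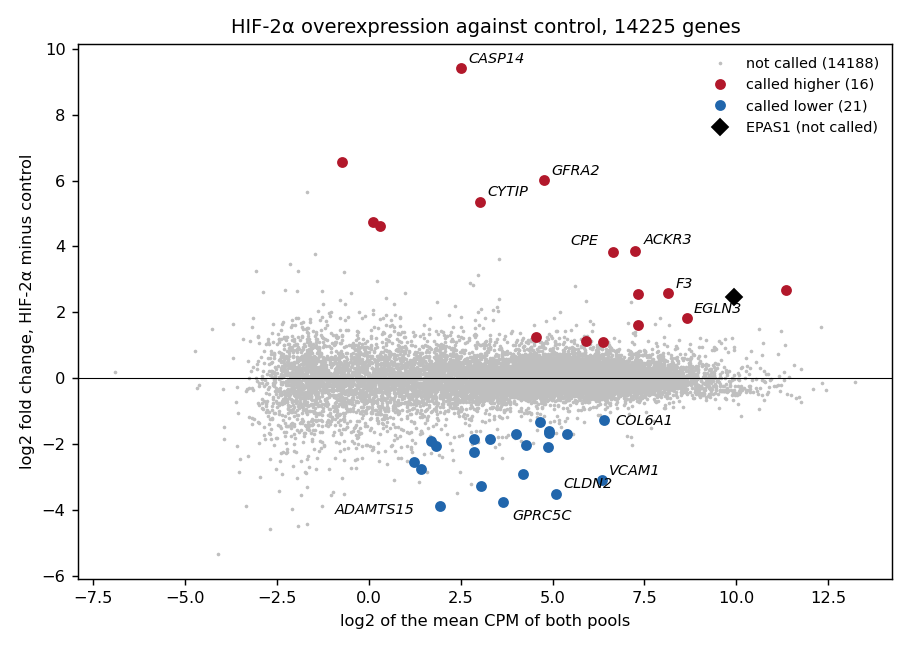
Log2 fold change (HIF-2α minus control) against the log2 mean CPM of both pools for 14225 genes. Red points are the 16 genes that rose, blue points the 21 that fell, gray points the rest and the diamond EPAS1, whose log2 fold change of 2.48 missed the adjusted threshold.

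F3, tissue factor, the cell surface trigger of coagulation, stood at 397, 506 and 558 CPM in HIF-2α cells and at 78.3, 86.7 and 79.2 CPM in control cells. For other genes, levels that follow the word against are those of control cells. Each HIF-2α library of F3 was above each control library, with a log2 fold change of 2.58 (SE 0.38, adjusted p = 0.0394 from edgeR). CPE, a carboxypeptidase that trims prohormones, stood at 61.9, 243 and 257 CPM against 6.55, 8.93 and 27.4 CPM. It rose by 3.83 on the log2 scale (SE 0.46, adjusted p = 0.0195 from edgeR), with replicate 1 the lowest in both groups.

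ACKR3, an atypical receptor that removes the chemokine CXCL12, stood at 167, 183 and 493 CPM in HIF-2α cells and at 38.0, 6.14 and 28.03 CPM in control cells. The groups did not overlap, and the log2 fold change was 3.85 (SE 0.50, adjusted p = 0.0279 from edgeR). GFRA2, a receptor component for the neurotrophic factor neurturin, went from 0.569, 0.654 and 1.04 CPM to 31.8, 78.1 and 50.4 CPM. With a log2 fold change of 6.01 (SE 0.52, adjusted p = 0.00707 from edgeR) it was near silent in control cells and clearly expressed in all HIF-2α libraries. PTPRB, a receptor tyrosine phosphatase known from endothelium, stood at 79.9, 109 and 58.5 CPM against 45.7, 44.04 and 23.8 CPM (log2 fold change 1.14, SE 0.17, adjusted p = 0.0394 from edgeR).

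EGLN3, the prolyl hydroxylase PHD3 and a feedback target of HIF, stood at 356, 912 and 650 CPM against 128, 205 and 171 CPM. Its log2 fold change was 1.83 (SE 0.25, adjusted p = 0.0379 from edgeR) with no overlap between groups. In the GENCODE annotation it overlaps SPTSSA on the same strand. Overlaps between genes given below come from that annotation too, while the counts were made on UCSC genes, where overlaps were not examined. SLC7A2, a transporter of arginine and other cationic amino acids, rose from 28.6, 44.6 and 51.3 CPM to 87.8, 301 and 452 CPM (log2 fold change 2.57, SE 0.37, adjusted p = 0.0394 from edgeR). CYTIP, which binds the cytohesin family of exchange factors, rose from 0.155 to 0.886 CPM in control libraries to between 8.02 and 26.0 CPM. SYT13, a synaptotagmin, and SOGA1 rose by 1.63 and 1.26 on the log2 scale.

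CASP14, a caspase of keratinocyte differentiation, had 1 count in all control libraries together and 1023 in the HIF-2α libraries. Per library total that is a ratio of 1041 with a 95% counting interval of 186.5 to 41170 (exact binomial, counting error only). Of its level, 29.3 CPM stood in replicate 2 against 1.49 and 3.11 CPM in replicates 1 and 3. The other 4 genes that rose were named after their values were seen. SIGLEC6, a sialic acid-binding lectin, had 119 counts against 1, RNASE1, a secreted ribonuclease, and C5orf46 stood under 5 CPM in every library, and GPR176, an orphan receptor, rose by 1.09 on the log2 scale.

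VCAM1, an adhesion molecule that leukocyte integrins bind, stood at 7.29, 6.25 and 44.2 CPM in HIF-2α cells and at 53.7, 87.0 and 291 CPM in control cells. Replicate 3 was highest in both groups, the groups did not overlap, and the log2 fold change was -3.09 (SE 0.32, adjusted p = 0.0134 from edgeR). ADAMTS15, a secreted metalloprotease of the matrix, stood at 0.265, 0.105 and 1.26 CPM against 2.59, 6.003 and 12.7 CPM (log2 fold change -3.88, SE 0.42, adjusted p = 0.0145 from edgeR). COL14A1, a collagen that lies along fibrils, fell by 2.22 on the log2 scale, from 11.3 to 12.9 CPM in control libraries to 1.43 to 3.26 CPM. COL6A1, a chain of the beaded filaments of collagen VI, stood at 47.3, 33.1 and 73.9 CPM against 108, 95.2 and 152 CPM (log2 fold change -1.26, SE 0.17, adjusted p = 0.0366 from edgeR).

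CLDN2, a claudin that forms cation pores in the proximal tubule, stood at 0.169, 2.55 and 10.2 CPM against 0.621, 31.0 and 161 CPM. Because its level differed so much between replicates the groups overlapped, while each pair fell, and the log2 fold change was -3.49 (SE 0.39, adjusted p = 0.0145 from edgeR). CLDN2 overlaps MORC4 on the other strand, and the strand setting of the counting is not given in the sources used here. KCNJ16, a potassium channel subunit of the kidney tubule, stood at 1.28, 2.48 and 12.3 CPM against 9.65, 38.5 and 46.9 CPM (log2 fold change -2.91, SE 0.36, adjusted p = 0.0195 from edgeR). FXYD2, the γ subunit of the sodium pump, and BCAM, a laminin receptor, fell by 1.67 and 1.83 on the log2 scale, both named after their values were seen. FXYD2 overlaps DSCAML1 on the same strand.

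PTGIS, prostacyclin synthase, stood at 1.16, 0.663 and 2.67 CPM in HIF-2α cells and at 5.28, 3.44 and 6.33 CPM in control cells (log2 fold change -1.90, SE 0.28, adjusted p = 0.0394 from edgeR). PTGER2, the prostaglandin E receptor EP2, stood at 1.56, 2.55 and 4.32 CPM against 3.98, 9.19 and 21.6 CPM, a log2 fold change of -1.84 (SE 0.28, adjusted p = 0.0394 from edgeR) with overlap between the groups. SLCO2A1, the prostaglandin transporter, fell by 2.55 on the log2 scale and was named after its values were seen. All these were low genes, at most 21.6 CPM in any control or HIF-2α library. PTGES, a prostaglandin E synthase, was not called and had a log2 fold change of 2.02 (adjusted p = 0.265 from edgeR). These genes were not a list of their own, and setting them side by side was chosen after their values were seen.

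Signalling genes that fell were WNT7B, SEMA3F, GPRC5C and GPR15. WNT7B, a secreted WNT ligand, stood at 6.67, 11.5 and 15.4 CPM against 39.0, 31.9 and 72.5 CPM (log2 fold change -2.07, SE 0.31, adjusted p = 0.0394 from edgeR). SEMA3F, a secreted semaphorin that repels axons and vessels, stood at 6.89, 6.001 and 8.81 CPM against 29.7, 18.7 and 45.8 CPM (log2 fold change -2.03, SE 0.23, adjusted p = 0.0145 from edgeR). Neither gene overlapped between groups. GPRC5C, an orphan receptor, stood at 2.21, 0.488 and 1.95 CPM against 28.6, 4.07 and 38.7 CPM (log2 fold change -3.75, SE 0.32, adjusted p = 0.00707 from edgeR). GPR15, a chemoattractant receptor of T cells, fell by 2.06 on the log2 scale, and FLJ22447 fell by 3.28 on that scale. IGFBP6, which binds insulin-like growth factors, stood at 14.9, 10.99 and 17.3 CPM against 62.1, 26.6 and 47.7 CPM, with no overlap. The other genes that fell, named after their values were seen, were DCDC2, which overlaps KAAG1 on the other strand (-1.70), S100A2 (-1.67), SCARA3, a scavenger receptor (-2.76), and AGPAT9, an acyltransferase of glycerolipid synthesis (-1.31), all as log2 fold changes.

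**Figure D3:**
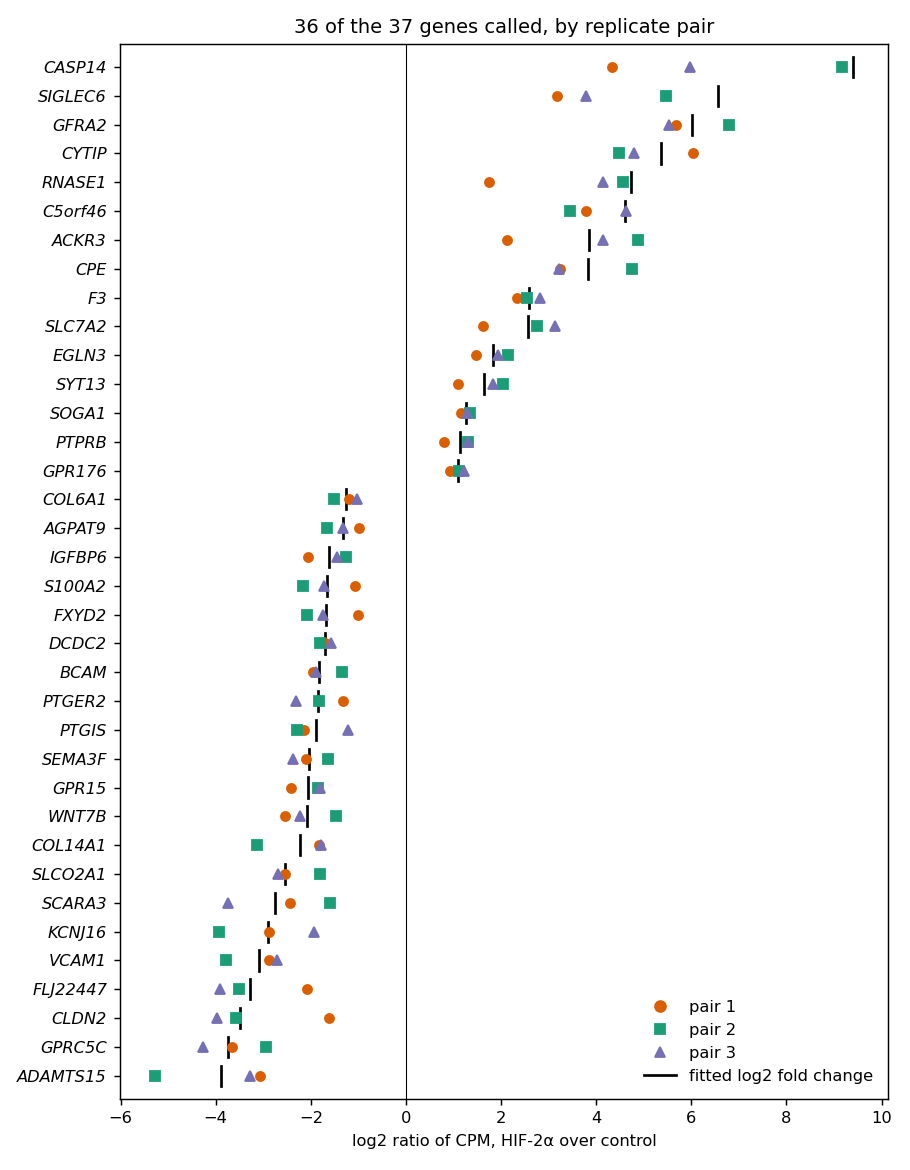
Log2 ratio of CPM, HIF-2α over control, for 36 of the 37 genes in pairs 1, 2 and 3 (symbols) with the fitted log2 fold change (bar). All points of a gene lie on the same side of 0. For CASP14, SIGLEC6 and RNASE1, near silent in control cells, the fitted value lies beyond the points of the pairs.

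HIF-2α binding was mapped in the same pools by ChIP-seq with 1 library per pool, and the authors deposited peaks of 2500 bp (5283 in overexpressing and 1719 in control cells) with no score. Of 13769 tested genes placed on GRCh37, 14.5% had a HIF-2α peak of the overexpressing cells within 10 kb of a start site. Among genes that rose this was 6 of 16 (37.5%, Wilson interval 18.5 to 61.4%), and among those that fell 11 of 19 placed (57.9%, 36.3 to 76.9%). In the longer lists the shares were 24.3% of genes higher and 31.0% of genes lower by DESeq2 with the block, and 20.7% in each direction at an unadjusted p under 0.05 from edgeR. With 1 ChIP library these are descriptions without a test, and the intervals cover counting error only. Start sites are those of any annotated transcript, so the nearest need not be the first of its gene. Peaks near genes that rose included CPE, with a midpoint 0.833 kb from a start site and outside the gene, and GPR176 at 0.092 kb. EGLN3, at chr14:34393433-34931980 in the GENCODE annotation, held one in an intron. Peaks near genes that fell included GPRC5C in an intron at 0.380 kb from a start site, KCNJ16 in an exon at 0.020 kb, IGFBP6 in an intron at 0.087 kb and WNT7B in an intron at 3.78 kb. KCNJ16 begins at chr17:68049570, upstream of its peak at chr17:68070192-68072691. EGLN3, PTPRB, WNT7B and GPRC5C also had a peak near the same place in the control cells. For peaks of the control cells the share was 5.33% of all tested genes, 18.8% of those that rose and 15.8% of those that fell.

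The hypoxia response element core was searched as ACGTG or GCGTG on both strands in 301 bases around each peak's midpoint. It was present at 45.9% of all 5283 peaks of overexpressing cells, at 5 of 6 peaks near genes that rose and at 4 of 11 near genes that fell. No core lay in that window at EGLN3, GPRC5C or KCNJ16, which says only that these letters are not in that window. The sequences below show the core nearest the midpoint for 2 genes that rose and 2 that fell, in capitals, 61 bases on the plus strand of GRCh37 read 5′ to 3′. They span chr4:166281429-166281489 (CPE), chr12:71039536-71039596 (PTPRB), chr20:48190681-48190741 (PTGIS) and chr22:46364869-46364929 (WNT7B), and none overlaps an annotated exon.
CPE: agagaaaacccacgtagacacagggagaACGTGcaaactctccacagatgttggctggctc
PTPRB: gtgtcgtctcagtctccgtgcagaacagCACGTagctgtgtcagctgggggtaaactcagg
PTGIS: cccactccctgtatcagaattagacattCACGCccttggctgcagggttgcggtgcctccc
WNT7B: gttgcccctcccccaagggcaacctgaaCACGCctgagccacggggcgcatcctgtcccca
The core in capitals is on the plus strand at CPE, and on the minus strand at the other 3, as CACGT or CACGC. The CPE stretch also holds an unmarked core on the minus strand, in lower case. A match is a description and not evidence of use.

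Genes long known as HIF targets lay mostly above 0. Of 51 tested in this list, 46 had a positive log2 fold change with a median of 0.66, against a median of -0.01 over all genes tested. EGLN3 was among 2 that passed the adjusted threshold, and 22 (43.1%) were higher at an unadjusted p under 0.05 against 7.63% of all genes tested, with 0 lower against 6.85%. DESeq2 with the block called 12 of the list higher and 0 lower, against 1.86% and 1.52% of all genes it tested. The same shares are the background for the DESeq2 counts of the lists below. Genes of a list are not independent of one another, and the counts have no test of their own. Medians by pair were 0.15, 1.07 and 0.83. Pair 1, the lowest, also had the smallest EPAS1 ratio and differed in mitosis and interferon genes, described below, and a link among these was not tested. The median of the list was 0.39 without control replicate 2 and 1.08 without control replicate 1.

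Among uncalled targets, PTHLH, parathyroid hormone-related protein, stood at 112, 180 and 412 CPM against 36.7, 30.7 and 66.9 CPM (log2 fold change 2.33, adjusted p = 0.0593 from edgeR). PLOD2, a lysyl hydroxylase of collagen, stood at 851, 1976 and 1249 CPM against 447, 588 and 598 CPM (1.24, adjusted p = 0.0600 from edgeR). TGFA, a ligand of the EGF receptor, stood at 1528, 2567 and 2859 CPM against 958, 570.4 and 970.5 CPM (1.49, adjusted p = 0.0683 from edgeR). All 3 were separated between groups and passed DESeq2 with the block. VEGFA, the main angiogenic factor, stood at 713, 1274 and 1035 CPM against 745, 288 and 399 CPM (1.13, adjusted p = 0.288 from edgeR), with pair 1 showing no rise. Of the 5 targets below 0, CA9 had the lowest log2 fold change, -3.13 (adjusted p = 0.377 from edgeR), set by control replicate 3, and BNIP3, a mitophagy receptor, stood at -0.64 (adjusted p = 0.528 from edgeR).

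**Figure D4:**
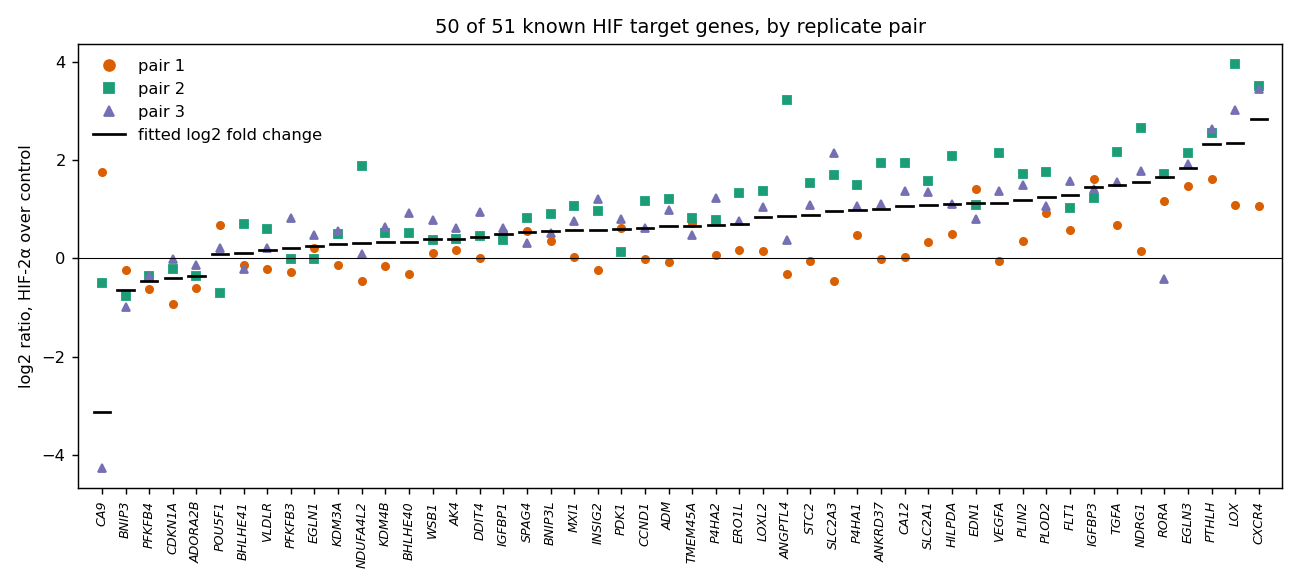
Log2 ratio of HIF-2α over control CPM in each pair (symbols) and fitted log2 fold change (bar) for 50 of the 51 known HIF targets, ordered by the fitted value. Pair 1 lies nearer 0 than pairs 2 and 3 for most genes, and 45 of the 50 bars are above 0.

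Of 23 tested enzymes and transporters of glycolysis, edgeR called 0, 12 were above 0, and the median was 0.04. At an unadjusted p under 0.05, 2 were higher (8.70%, against 7.63% of all genes tested) and 0 lower, and DESeq2 with the block called 1 higher. The median turned negative without HIF-2α replicate 1 (-0.11), HIF-2α replicate 3 (-0.24) or control replicate 2 (-0.11). The glucose transporter SLC2A1 stood at 1591, 2959 and 2403 CPM against 1264, 995 and 944 CPM (log2 fold change 1.08, adjusted p = 0.139 from edgeR). Enzymes of the lower pathway stood below 0: the log2 fold change was -0.56 for GAPDH, -0.51 for ENO1 and -0.59 for PKM, and none was called (edgeR, adjusted p = 0.476, 0.400 and 0.356).

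Enzymes that modify collagen showed a median of 0.28 over 16 tested, with 11 higher in all 3 pairs, as were 19.7% of all genes tested. Of the 16, edgeR called 0, the unadjusted p was under 0.05 for 6 above (37.5%, against 7.63% of all genes tested) and 1 below control (6.25%, against 6.85%), and DESeq2 with the block called 3. LOX, the lysyl oxidase that cross-links collagen, stood at 90.3, 115 and 96.3 CPM against 42.5, 7.40 and 11.9 CPM (log2 fold change 2.35, adjusted p = 0.233 from edgeR). P4HA1, a prolyl hydroxylase of collagen, had a log2 fold change of 0.99 (adjusted p = 0.139 from edgeR). The list of collagens, which does not hold COL14A1, had COL6A1 called lower of 19 tested, and DESeq2 with the block called 1 higher and 3 lower. In edgeR, 5 had an unadjusted p under 0.05 and were higher (26.3%, against 7.63% of all genes tested), and 4 were lower (21.1%, against 6.85%). Its highest log2 fold change was 1.33 for COL5A2 (adjusted p = 0.0620 from edgeR) and its lowest -2.73 for COL9A2 (adjusted p = 0.0593 from edgeR). Matrix proteases and their inhibitors held 1 gene called higher and ADAMTS15 called lower of 30 tested, with 8 lower at an unadjusted p under 0.05 (26.7%, against 6.85% of all genes tested). Their median of -0.14 lay between -0.42 (without HIF-2α replicate 2) and -0.20 (without control replicate 3) when any 1 library of either pool was left out.

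Kidney lineage genes lay below 0. Of 22 tested, 20 were below 0 with a median of -0.58, and 14 were lower in all 3 pairs against 19.4% of all genes tested. None of the 22 was called by edgeR, 8 were lower (36.4%, against 6.85% of all genes tested) and 1 higher (4.55%, against 7.63%) at an unadjusted p under 0.05, and DESeq2 with the block called 5 lower and 1 higher. CDH6, a cadherin of the proximal tubule lineage, stood at 14.0, 32.8 and 136 CPM against 36.5, 176 and 457 CPM (log2 fold change -1.78, adjusted p = 0.102 from edgeR). ANPEP, a brush border peptidase, stood at -1.32 (adjusted p = 0.0765 from edgeR). MME, another brush border peptidase, was the higher of the 2 genes above 0, at 1.28 (adjusted p = 0.164 from edgeR). Without control replicate 1, 6 of the 22 were above 0 and the median was -0.46.

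Epithelial and mesenchymal identity genes had a median of -0.41 over 27 tested, with 16 below 0 and 11 above. The list holds genes of both kinds, so its median does not describe a shift towards either identity. The median was -0.21 without HIF-2α replicate 2 and -0.26 without control replicate 2. At an unadjusted p under 0.05, 10 were lower (37%, against 6.85% of all genes tested) and 1 higher (3.70%, against 7.63%), while edgeR called 0 and DESeq2 with the block called 5 lower. KRT19, a keratin of simple epithelia, stood at 194, 128 and 68.0 CPM against 322, 318 and 263 CPM (log2 fold change -1.28, adjusted p = 0.149 from edgeR). KRT18 stood at -0.69 (adjusted p = 0.199 from edgeR), while the mesenchymal cadherin CDH11 was also low, at -2.27 (adjusted p = 0.149 from edgeR). ZEB2, a repressor of epithelial genes, was the 1 that was higher, at 1.02 (adjusted p = 0.259 from edgeR).

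Subunits of oxidative phosphorylation mostly stood below 0. Of 76 tested, 74 had a negative log2 fold change with a median of -0.43, and 47 (61.8%) were lower at an unadjusted p under 0.05 against 6.85% of all genes tested. None passed the adjusted threshold in edgeR, and DESeq2 with the block called 1, NDUFA4, which stood at 129, 97.5 and 134 CPM against 153, 174 and 286 CPM. Cytoplasmic ribosomal proteins did likewise: all 74 stood below 0, with a median of -0.39, 22 (29.7%) were lower at an unadjusted p under 0.05, and 0 were called by edgeR and 1 by DESeq2 with the block. The proteasome had 30 of 31 below 0, a median of -0.33 and 7 (22.6%) lower at an unadjusted p under 0.05, and 0 called by either tool. The negative values lay mainly in pairs 2 and 3: medians in pair 1 were -0.06 for oxidative phosphorylation, -0.05 for ribosomal proteins and 0.06 for the proteasome, against -0.57 and -0.62, -0.63 and -0.50, and -0.56 and -0.43. Medians for oxidative phosphorylation lay between -0.60 and -0.33 when any library or pair was left out. The median of ribosomal proteins was -0.25 without control replicate 2, and that of the proteasome was -0.21 without control replicate 3 and -0.21 without HIF-2α replicate 2.

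Cell division and interferon genes differed in direction between pairs. All 37 tested genes of mitosis were above 0 in pair 1, but 5 were in pair 2 and 5 in pair 3, and the medians were 1.12, -0.45 and -0.46. DNA replication genes gave 36 of 36, 3 and 1 above 0, with medians of 0.69, -0.43 and -0.57. MKI67, a proliferation antigen, did not change direction and was higher in each pair, at 218, 424 and 237 CPM against 83.2, 390 and 186 CPM. The 46 genes of interferon response and MHC class I ran opposite, with 2 above 0 in pair 1, 41 in pair 2 and 38 in pair 3 and medians of -0.99, 0.93 and 0.85. MX1, an antiviral GTPase, stood at 7.51, 35.3 and 23.4 CPM against 37.1, 4.44 and 2.74 CPM. The part that division and interferon genes had in other differences between pairs was not tested. None of these lists had a called member in edgeR, and DESeq2 with the block called 0. At an unadjusted p under 0.05 from edgeR, 2 mitosis genes were higher (5.41%, against 7.63% of all genes tested). In the same test 2 interferon genes were lower (4.35%, against 6.85%).

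**Figure D5:**
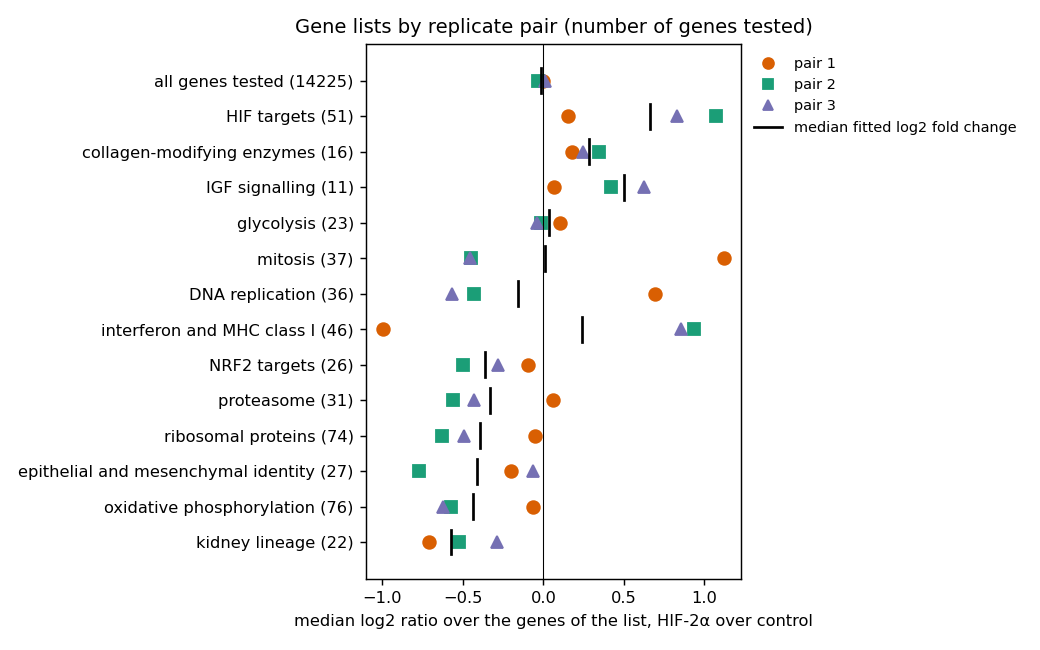
Median log2 ratio of HIF-2α over control for 13 gene lists and for all genes tested, with symbols for pairs 1 to 3 and a bar for the median fitted log2 fold change. HIF targets lie above 0 in each pair (0.15, 1.07 and 0.83), kidney lineage below 0 in each (-0.71, -0.53 and -0.29), and mitosis and interferon change sides between pair 1 and the others.

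Of the 58 lists, 13 had at least 1 called member. IGF signalling held IGFBP6 among genes that fell, and 5 of its 11 tested genes were higher at an unadjusted p under 0.05 (45.5%, against 7.63% of all genes tested), among them IRS2 at 0.96 (adjusted p = 0.129 from edgeR) and IGF1R at 0.67 (adjusted p = 0.252 from edgeR). The list's median was 0.50, and 0.22 without control replicate 3 and 0.31 without HIF-2α replicate 1, with 0.07 in pair 1. The EGF receptor EGFR stood at 1.40 (adjusted p = 0.164 from edgeR) and its ligand EREG at -1.75 (adjusted p = 0.231 from edgeR). The list of EGF receptors and ligands held 11 tested genes, with 0 called by edgeR, 2 by DESeq2 with the block, and, at an unadjusted p under 0.05, 3 higher (27.3%, against 7.63% of all genes tested) and 2 lower (18.2%, against 6.85%). Axon guidance genes went both ways, with SEMA3F called lower of 40 tested, and at an unadjusted p under 0.05 there were 8 higher (20.0%, against 7.63% of all genes tested) and 6 lower (15.0%, against 6.85%). NRP1, a semaphorin and VEGF coreceptor, stood at -1.07 (adjusted p = 0.0673 from edgeR), and PLXNA2, a semaphorin receptor, at 3.61 (adjusted p = 0.119 from edgeR). Targets of NRF2 and glutathione genes had 7 of 26 lower at an unadjusted p under 0.05 (26.9%, against 6.85% of all genes tested), a median of -0.36 and 0 called by edgeR or by DESeq2. Medians of all 58 lists lay between -0.78 and 0.66.

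Direct contrast with the HIF-1α pool shows whether these genes differ between the HIF-2α and the HIF-1α pool. The isoform cannot be told apart from other differences between these pools. A gap between them can come from a change in either pool. That contrast uses the same HIF-2α libraries, so its agreement with the contrast above is not independent evidence. edgeR called 187 genes higher (1.31%) and 630 lower (4.43%) in HIF-2α than in HIF-1α cells. Of the 16 genes that rose against control, 14 were also higher than in HIF-1α cells, and of the 21 that fell, 20 were also lower. The exceptions were SOGA1, at a log2 difference of -0.08 (edgeR, adjusted p = 0.836), PTPRB at 0.68 (edgeR, adjusted p = 0.0502) and S100A2 at -0.58 (edgeR, adjusted p = 0.157). PTGIS stood at 21.6, 11.4 and 31.9 CPM in HIF-1α cells, above every control library, and VCAM1 at 81.2, 231 and 885 CPM.

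Among known HIF targets, 7 of 51 were higher and 5 lower in HIF-2α than in HIF-1α cells in edgeR's quasi-likelihood test. Of all genes tested, 1.31% were higher and 4.43% lower. Those higher included CXCR4, the chemokine receptor for CXCL12, at a log2 difference of 3.67 (edgeR, adjusted p = 0.0207), PTHLH at 3.63 (edgeR, adjusted p = 0.00390), TGFA at 2.06 (edgeR, adjusted p = 0.00589) and EGLN3 at 1.94 (edgeR, adjusted p = 0.00530). Those lower included CA9, a carbonic anhydrase, at -8.85 (edgeR, adjusted p = 0.0155), BNIP3 at -2.36 (edgeR, adjusted p = 0.0284) and PFKFB4, a regulator of glycolysis, at -1.78 (edgeR, adjusted p = 0.0236). VEGFA and SLC2A1 did not pass the threshold, at -0.11 (edgeR, adjusted p = 0.889) and 0.92 (edgeR, adjusted p = 0.0638).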

How the data were processed

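Polyadenylated RNA of 3 pools of 786-O cells was sequenced in triplicate. The authors deposited raw counts, without normalization, for each gene symbol, made with Trim Galore 0.3.3, TopHat2 2.0.8b and HTSeq 0.5.4p3 on GRCh37 (hg19), from uniquely mapped fragments and UCSC genes. Peaks, which the authors took from BWA alignments where T-PIC and MACS both called them, hold positions only. The kit was directional, and the strand setting of the counting is not given in the sources used here.

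Counts were fitted in R 4.3.3 with edgeR 4.0.16 (filterByExpr, TMM, robust quasi-likelihood test, pool and replicate number as terms, 9 libraries, 4 residual degrees of freedom) and Benjamini-Hochberg adjusted over 14225 genes, threshold 0.05. The biological coefficient of variation was 24.6%. The replicate number was a block: deviations from the group means correlated at 0.391 to 0.577 in the 3 same-numbered pairs and at -0.417 to -0.0977 in the 6 others. Deviations sum to 0 within each group, so positive values in the former force negative ones among the latter, which add no support. DESeq2 1.42.0 and other settings were alternatives. The code was tested on simulated data. Gene positions came from the GENCODE annotation of GRCh37.

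Genes named were EPAS1, HIF1A, ARNT, the 12 strongest rises and 12 strongest falls that reached a mean of 5 CPM in either group and moved one way in 3 pairs, and called members of lists. Uncalled list members given with values were picked after their values were seen. The members and lists were chosen with earlier results of these data known. Some single-gene results are not reported here.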

Additional observations from a re-analysis of the deposited data

How the results depend on the processing

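Of the genes called with the replicate block, 16 were higher and 21 lower. With no replicate block edgeR called 0 and 0, DESeq2 with the block 268 and 219, DESeq2 with no replicate block 36 and 29, and no filter on low counts gave 31 and 54. Leaving out 1 library or replicate number gave between 1 and 66 genes higher and between 1 and 49 lower. Counts moved by over 1.5 times in at least 1 direction without control replicate 1 (66 and 19), control replicate 2 (1 and 1), control replicate 3 (1 and 6), HIF-2α replicate 1 (6 and 5), replicate 2 (8 and 16) and replicate 3 (5 and 1), without replicate number 1 (22 and 7), 2 (4 and 5) and 3 (6 and 13) in all pools, and without HIF-1α replicate 1 (8 and 11), 2 (12 and 13) and 3 (37 and 49). The last 3 were chosen after seeing the data. Fewer libraries leave fewer residual degrees of freedom. In all of these fits, the 37 genes kept their direction where tested, which is not independent support because the fits share libraries.

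For HIF-2α against HIF-1α, edgeR called 187 and 630. With no replicate block it called 3 and 4, with only the libraries of the 2 groups 98 and 398, and DESeq2 with the block 630 and 1168. Leave-outs gave 23 to 232 higher and 137 to 650 lower, with the fewest, 23 and 137, without HIF-2α replicate 3. HIF-2α sites of the control cells (1719 peaks) lay within 10 kb of 15.8% of genes that fell and of 5.33% of all tested genes. For sites of the overexpressing cells (5283 peaks) these shares were 57.9% and 14.5%. Of the 58 list medians, 57 moved by less than their spread between pairs with no replicate block. Each replicate number occurs once per pool, so dropping the block could move fold changes only a little, and this is no check of the medians. Scaling by library totals or by DESeq2's size factors changed no call of the 37. EPAS1 passed the threshold with DESeq2, blocked or not, and in edgeR without control replicate 1 (adjusted p = 0.0384) or replicate number 1 (0.0455), and otherwise missed it, with adjusted p up to 0.504. Depth limits genes such as SIGLEC6 and CASP14, with 1 control count each.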
